A study of Mus musculus with 6 samples.

Results

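The transcripts of 9 chemokine receptors that T cells use (Ccr1, Ccr2, Ccr4, Ccr6, Ccr8, Ccr9, Cxcr3, Cxcr4 and Cxcr6) were followed in induced regulatory T cells (iTreg cells) with and without a deletion of miR-31. They were chosen by name, as every probe whose annotated gene symbol equals one of the 9, which gave 12 of the 41174 probes on the array. The 6 arrays held 1 for each of 3 cKO and 3 control mice, to ask which genes changed in iTreg cells that lack this microRNA. The cKO mice carried floxed miR-31 alleles and the CD4Cre transgene (miR-31 fl/fl CD4Cre), which is active from the CD4-expressing stages of T-cell development. The control mice carried the same floxed alleles without Cre (miR-31 fl/fl), so the floxed alleles were common to both groups and Cre was present in cKO mice only. All mice were 6 weeks old and on the C57BL/6 background. Naive T cells were sorted from the spleen as CD4+CD25-Foxp3gfp-CD62Lhi cells and cultured for 4 days with plate-bound anti-CD3 at 5 μg/ml, anti-CD28 at 2 μg/ml, TGF-β1 at 5 ng/ml and IL-2 at 40 ng/ml. These are the tissue and doses of the sample labels, and the study's methods name lymph nodes beside the spleen and a lower dose of IL-2. For the arrays, the study's methods name no sort after the culture, so the RNA is taken here to come from all cells of each culture. In such RNA, fewer cells that express a receptor and less receptor RNA per cell cannot be told apart.

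Chemokine receptors are G-protein-coupled receptors that steer migrating leukocytes along gradients of chemokines. The set of receptors on a T cell differs with its lineage and activation state and decides which tissues it can enter. Ligand binding activates inhibitory G proteins and phosphoinositide 3-kinase γ, while receptor kinases, arrestins and RGS proteins end the signal. CCR6 is known from TH17 cells and from regulatory T cells in inflamed mucosa, CXCR3 and CXCR6 from TH1 cells, CCR4 and CCR8 from TH2 and regulatory T cells, CXCR4 from naive and bone-marrow-homing cells, CCR9 from cells that home to the small intestine, and CCR1 and CCR2 from effector T cells and monocytes.

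The mature microRNAs are shown because their locus is what distinguished the genotypes, with the seed (bases 2 to 8) in capitals. Both are read from the minus strand of chromosome 4 in the RefSeq annotation of GRCm38.p6, at chr4:88910614-88910635 for the 5p arm and chr4:88910577-88910599 for the 3p arm.
mmu-miR-31-5p: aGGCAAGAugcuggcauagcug
mmu-miR-31-3p: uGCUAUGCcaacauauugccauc
Each receptor is measured only through a probe of 60 bases, and 3 of these probes are printed because the differences described below were read from them (Ccr6 and Cxcr4) or because the receptor differed in sign from the others (Ccr8). Their mm9 positions are those of the array annotation: chr17:8449719-8449778 on the plus strand for Ccr6, chr1:130485659-130485718 on the minus strand for Cxcr4 and chr9:120003441-120003500 on the plus strand for Ccr8. The annotation does not mark exons or coding sequence, and each of the 3 had at least 1 reading frame without a stop codon. The capitals in the Ccr6 probe mark codons for asparagine, proline, any residue, any residue and tyrosine, a motif at the end of the seventh transmembrane helix in this family of receptors.
Ccr6 probe A_51_P388281: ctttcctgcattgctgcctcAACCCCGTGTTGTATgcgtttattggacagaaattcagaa
Cxcr4 probe A_52_P565353: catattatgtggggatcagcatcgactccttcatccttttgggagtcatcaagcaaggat
Ccr8 probe A_51_P225380: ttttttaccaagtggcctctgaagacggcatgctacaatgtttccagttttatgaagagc
The longest run of bases shared by probes of 2 different receptors was 10, so no pair of receptors was read through a nearly identical sequence. The DNA complement of the miR-31-5p seed (TCTTGCC) occurred, on the strand of the probe, in 0 of the 12 receptor probes and in 0.323% of all probes, and that of the miR-31-3p seed (GCATAGC) in 0 of 12 and in 0.143%. A probe covers only a small window of its transcript, so these counts say only that the letters were not in that window. The genes of 6 of the 9 receptors (Ccr1, Ccr2, Ccr4, Ccr8, Ccr9 and Cxcr6) lie on chromosome 9.

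Arrays of 1 genotype correlated at r = 0.974 or higher across probes. The weights that limma gave the arrays ran from 0.184 for cKO array 3, the lowest, to 3.84 for control array 2. The 75th percentile of the signal was 939 to 1095, 49.3 to 57.7% of spots per array were well above background, and 0 spots were saturated. All 3 cKO arrays and control array 1 were on slide 1, and control arrays 2 and 3 were on slide 2, so that slide and genotype were partly confounded. For each tested receptor the difference within slide 1 (3 cKO arrays minus control array 1) is therefore given, which has 1 control array and no test. No probe was named for miR-31, so its deletion was not checked here. All 10 T cell markers and all 10 Treg markers measured were bright enough to be tested. The T cell markers had log2 fold changes from −0.27 for Cd3e to 0.74 for Cd3g, and 0 passed the adjusted test. At an unadjusted p under 0.05 (limma), 4 were higher and 1 lower, beside 11.7% and 11.3% of all tested probes. Their groups did not overlap for 4 upward and 2 downward, beside 16.2% and 20.3%. Foxp3, the lineage factor of regulatory T cells, had a log2 value of 2.98 ± 0.39 (SD, n = 3) in cKO and 3.59 ± 0.19 in control cells (limma, unadjusted p = 0.032, adjusted p = 0.191). The Treg markers did not move one way, with 5 positive and 5 negative log2 fold changes from −1.998 for Gpr83 to 0.94 for Ctla4 (adjusted p = 0.089 and 0.137), and 0 passed the adjusted test. At an unadjusted p under 0.05 (limma), 1 Treg marker was higher and 3 were lower, beside 11.7% and 11.3% of all tested probes. Groups did not overlap for 2 upward, Ctla4 included, and 3 downward, Foxp3 and Gpr83 included, beside 16.2% and 20.3%. Some markers of other cells were also measured. Of 11 myeloid markers 3 were tested, with Emr1, S100a8 and Elane well above background on 0 arrays, and the summed signal of the list was 341 to 1512 in cKO and 515 to 599 in control cells. Cd68 was higher by 0.64 with groups that did not overlap (limma, unadjusted p = 0.029), beside 16.2% of all tested probes that separated upward. The other tested genes, Fcgr3 and Csf1r, had 1.70 and 0.15 (limma, adjusted p = 0.579 and 0.721). Fcgr3 ranged from −5.56 to 0.15 on the cKO arrays and from −5.97 to −2.08 on the control arrays. Mpo, too dim to test, did not overlap downward. Of 7 B cell markers 2 were tested, Cd79b and Blnk, both well above background on 3 cKO and 3 control arrays. They had log2 fold changes of 0.61 and 0.20 (limma, adjusted p = 0.335 and 0.793). Pax5 and Cd22 were well above background on 0 arrays. The summed signal of the B cell list was 634 to 1419 in cKO and 492 to 793 in control cells. Of 6 NK and CD8 T cell markers 4 were tested, Cd8a and Cd8b1 included, with sums of 6787 to 13540 in cKO and 7112 to 9646 in control cells. The tested genes did not move one way. Klrd1 measured 3.03, 0.60 and 3.19 in cKO and 0.90, 0.18 and 0.07 in control cells. Its difference was 1.89 (limma, unadjusted p = 0.037), and Eomes had 0.17. Cd8a and Cd8b1 were lower in cKO cells, with −0.86 and −0.17 (limma, adjusted p = 0.255 and 0.565). Ncr1, too dim to test, did not overlap upward. None of these lists had a gene past the adjusted test. The part of such cells in the receptor values was not tested.

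Of the 9 receptors, 6 were tested, having a signal marked well above background on 3 arrays or more, through 8 probes (Ccr6, Cxcr3, Ccr8, Cxcr6, and 2 probes each of Ccr4 and Cxcr4). Ccr1, Ccr2 and Ccr9, with 4 probes, were too dim to test. Values below are log2 signals relative to the 75th percentile of the same array, and because probes differ in how well they hybridise, a higher value of 1 gene than of another does not mean more transcript. With limma, 0 of these 8 probes reached an adjusted p under 0.05, beside 0.13% of the 22281 tested probes (29 probes, 15 higher and 14 lower in cKO cells). At an unadjusted p under 0.05 the Ccr6 probe was the 1 higher, beside 11.7% of all tested probes, and 0 were lower, beside 11.3%. In 0 of 8 probes did all 3 cKO arrays lie above or all below the 3 control arrays, whereas the arrays separated upward for 16.2% and downward for 20.3% of tested probes. By the brightest probe of each gene the log2 fold change was positive for 5 receptors and negative for 1, and its median was 0.28, beside −0.04 over all tested probes. Among the positive values, those of Cxcr6 (0.02) and Ccr4 (0.12) changed sign under some of the alternatives given below.

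**Figure D1:**
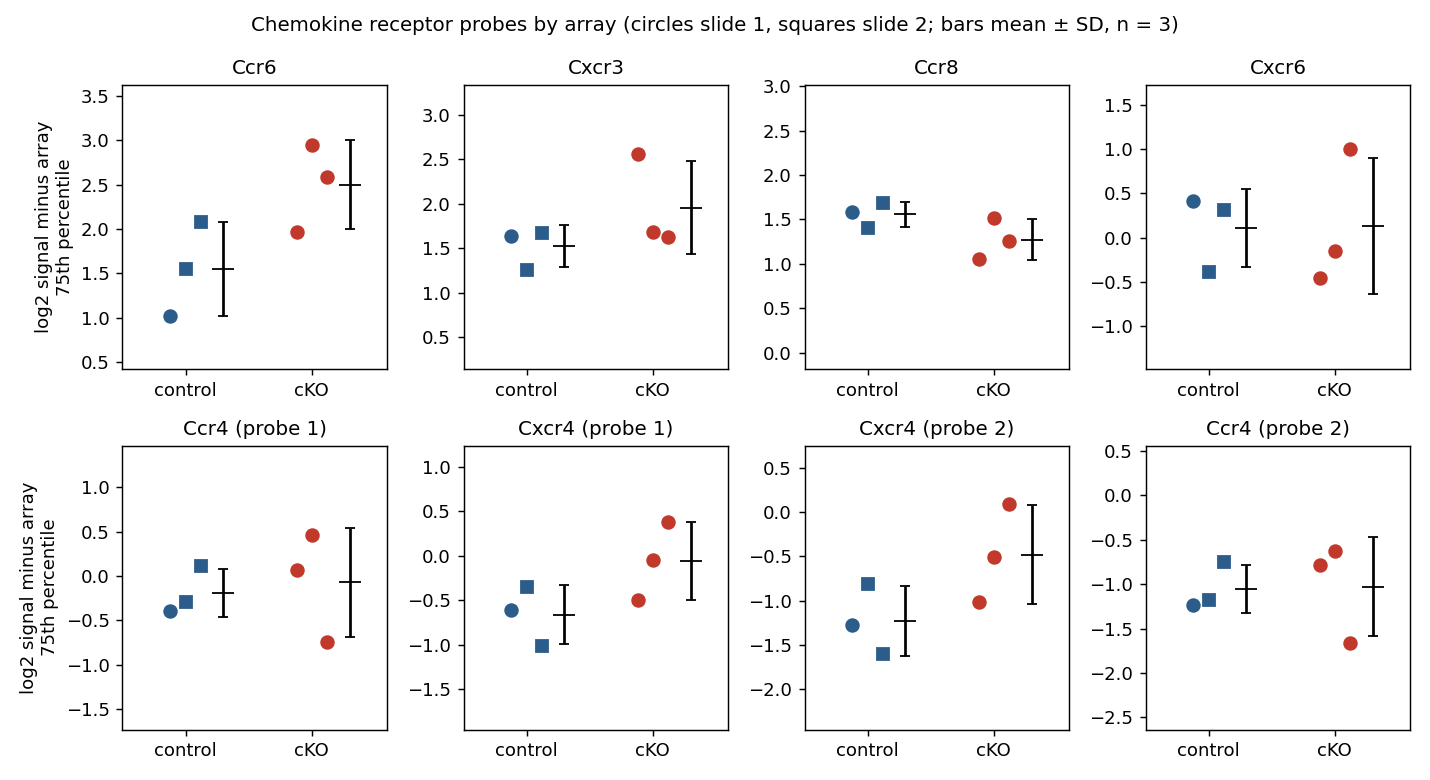
Log2 signal relative to each array's 75th percentile for the 8 tested receptor probes, with 1 point per array (circles slide 1, squares slide 2) and the mean ± SD of each genotype beside the points (n = 3). Each panel spans the same range of log2 units around its own mean. The cKO and control points overlap in every panel, and the Ccr6 means, at 2.50 and 1.55, lie farthest apart.

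Ccr6, the receptor for CCL20, gave the largest difference of the 8 tested probes. Its values were 1.96, 2.95 and 2.59 on the 3 cKO arrays and 1.02, 1.54 and 2.08 on the 3 control arrays. Of the cKO arrays, 2 lay above every control array, but the lowest cKO array lay below the highest control array, so the groups overlapped. The mean was 2.50 ± 0.50 (SD, n = 3) in cKO and 1.55 ± 0.53 in control cells. The log2 fold change was 0.95 ± 0.35 (SE; 95% interval 0.10 to 1.80), which is a 1.94-fold higher signal with an interval of 1.07- to 3.49-fold. It did not pass the test over all probes (limma, unadjusted p = 0.033, adjusted p = 0.195), and the exact 2-sided permutation test over arrays gave p = 0.20, where 0.10 is the smallest p that 3 against 3 arrays can give. A change of this size or larger in either direction was found at 5.95% of tested probes, and 17.2% of tested probes had a smaller p. Within slide 1 the difference was 1.48, since control array 1 was the lowest of the controls. The same value came from the fit with slide as a term (limma, adjusted p = 0.537).

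The Ccr6 probe was also among the more variable ones. Its residual SD within genotypes was 0.51 log2 units, above that of 90.1% of tested probes, where the median was 0.20. Leaving out each array in turn moved its log2 fold change between 0.69 (without control array 1) and 1.22 (without cKO array 1). The cKO mean thus remained above the control mean whichever array was left out.

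The 3 genes whose brightest probe followed Ccr6 most closely over the 6 arrays, of 14344 genes ranked, were Rarres2, Xpnpep2 and Slc25a23. Rarres2, which encodes the chemoattractant chemerin, correlated at r = 0.994, the aminopeptidase gene Xpnpep2 at 0.990 and the mitochondrial carrier gene Slc25a23 at 0.987. These r values describe 6 arrays that share 2 genotypes and 2 slides, and 111 genes had an r above 0.9. All 3 were dim, from −5.30 to −3.74 for Rarres2, −4.89 to −3.25 for Xpnpep2 and −4.30 to −2.53 for Slc25a23. On control array 1 each lay below the lowest spot well above background, which was at −3.90. Rarres2 also lay below that level on control array 2, at −4.89 against −4.83.

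Cxcr3, the receptor for the interferon-induced ligands CXCL9, CXCL10 and CXCL11, was read by a probe at chrX:98926920-98926979 (minus strand). It measured 2.56, 1.68 and 1.63 on the cKO arrays and 1.64, 1.25 and 1.67 on the control arrays. A single cKO array stood above the other 5, which lay between 1.25 and 1.68. The log2 fold change was 0.44 ± 0.28 (SE; 95% interval −0.25 to 1.12) and did not pass the test (limma, adjusted p = 0.367). Without cKO array 1 it was 0.13, and within slide 1 it was 0.32. Its interval allows a signal from 0.84 to 2.17 times that of the controls.

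Cxcr6, whose ligand is the membrane-bound chemokine CXCL16, had no settled direction. Its probe at chr9:123720605-123720664 (plus strand) measured −0.46, −0.15 and 1.00 on the cKO arrays and 0.41, −0.39 and 0.31 on the control arrays. The highest and the lowest of the 6 values were both from cKO cells. The log2 fold change of 0.02 ± 0.42 (SE) had an interval of −0.999 to 1.04 (limma, adjusted p = 0.979), or 0.50 to 2.06 times the control signal. It became −0.41 without cKO array 3 and was −0.28 within slide 1. This was the most variable of the tested receptor probes, with a residual SD of 0.63, above that of 93.4% of tested probes.

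Ccr8, the receptor for CCL1 and a receptor of TH2 and regulatory T cells, was the tested receptor whose mean was lower in cKO cells. It measured 1.05, 1.51 and 1.25 on the cKO arrays and 1.59, 1.41 and 1.69 on the control arrays. Of the cKO arrays, 2 lay below every control array and 1 lay among the controls. The log2 fold change was −0.29 ± 0.15 (SE; 95% interval −0.66 to 0.08) and did not pass the test (limma, adjusted p = 0.293). It stayed between −0.41 and −0.18 when each array was left out and was −0.32 within slide 1. With a residual SD of 0.19, above that of 46.6% of tested probes, Ccr8 was the only tested receptor with a spread below the median of all tested probes, and its interval bounds the change more tightly, at 0.63 to 1.06 times the control signal.

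Ccr4, the receptor for CCL17 and CCL22, was measured by a pair of probes, A_51_P444473 at chr9:114400791-114400850 and A_51_P444476 at chr9:114400761-114400820 on the minus strand, which share 30 bases and are not independent. The brighter probe measured 0.06, 0.46 and −0.75 on the cKO arrays and −0.39, −0.29 and 0.11 on the control arrays. At both probes cKO array 3 was the lowest of the 6 arrays and cKO array 2 the highest. The log2 fold change was 0.12 ± 0.32 (SE; 95% interval −0.67 to 0.91) at the brighter probe and 0.03 ± 0.30 (−0.70 to 0.76) at the other (limma, adjusted p = 0.838 and 0.962). Without cKO array 2 both turned negative, to −0.15 and −0.17, and within slide 1 they were 0.32 and 0.21. The arrays therefore set no direction for Ccr4, and a difference of up to about 1.87-fold higher lay within the interval of the brighter probe.

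Cxcr4, the receptor for CXCL12, was read by 2 probes that do not overlap, A_52_P585124 at chr1:130485079-130485138 and the probe printed above. At the first, the cKO arrays measured −0.50, −0.05 and 0.38 and the control arrays −0.61, −0.35 and −1.02. At the printed probe, the cKO arrays measured −1.02, −0.51 and 0.09 and the control arrays −1.28, −0.81 and −1.60. The 6 arrays had the same order at both probes, from control array 3, the lowest, to cKO array 3, the highest, and a single inversion (cKO array 1 below control array 2) made the groups overlap. The log2 fold change was 0.61 ± 0.27 (SE; 95% interval −0.05 to 1.27) at the first probe and 0.75 ± 0.33 (−0.05 to 1.54) at the printed probe. Neither passed the test (limma, unadjusted p = 0.066 and 0.062, adjusted p = 0.238 and 0.232). Within slide 1 the differences were 0.56 and 0.80. The log2 fold changes rested in part on cKO array 3, without which they fell to 0.39 and 0.46. With limma's array weights, lowest for that array, they were 0.37 and 0.43.

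**Figure D2:**
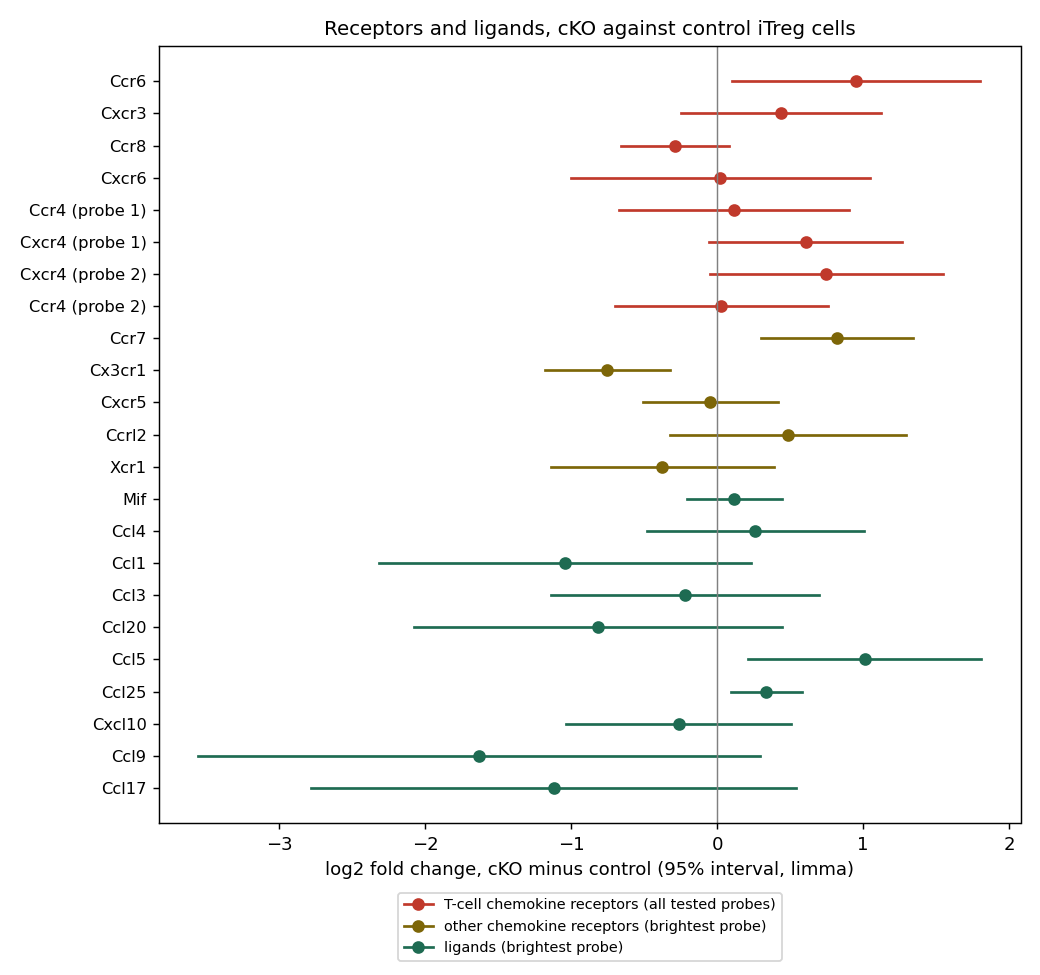
Log2 fold change of cKO over control cells with its 95% interval from limma (x axis) for the 8 tested receptor probes, 5 other chemokine receptors and the 10 ligands that were tested. Of the receptor probes in red, the Ccr6 interval, 0.10 to 1.80, was the one that left out 0, and both Cxcr4 intervals began at −0.05.

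Ccr9, the receptor for the gut chemokine CCL25, was well above background on 1 array, cKO array 3, and was not tested. Its probe at chr9:123690334-123690393 had processed signals of 36.2, 40.4 and 39.2 intensity units in cKO cells and 34.7, 28.6 and 26.2 in control cells. The 3 cKO signals lay above the 3 control signals, while the lowest spot well above background had 33.7 to 73.4 units, depending on the array. No fold is given, because the mean of the cKO arrays was below the background level set for the control arrays. Ccr2 and Ccr1, receptors for CCL2 and for CCL3 and CCL5 among others, were well above background on 0 arrays. The Ccr2 probes had signals of 10.6 to 32.3 and 9.21 to 17.0 units and the Ccr1 probe of 8.41 to 18.2, with both genotypes spread over the same range. Ccr1 and Ccr2 were not detectable above background on these arrays, which does not show that their transcripts were absent.

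**Figure D3:**
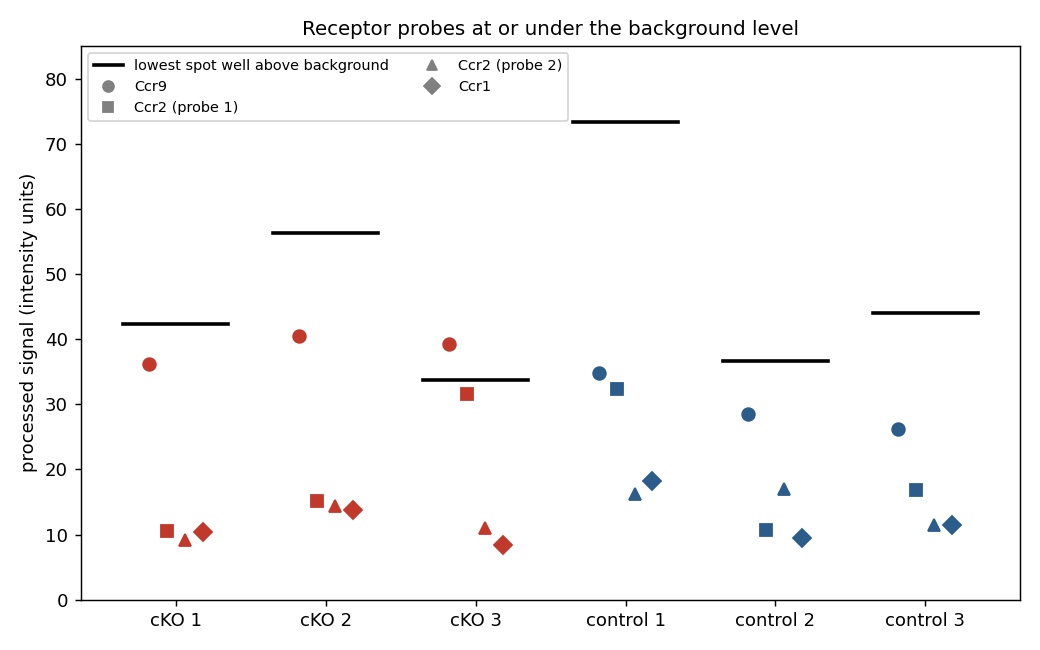
Processed signal (y axis, intensity units) of the 4 receptor probes that were not tested, by array, with red points for cKO and blue points for control arrays. The black line is the lowest spot marked well above background on that array. The points lie below the line on every array except Ccr9 on cKO array 3, at 39.2 against 33.7.

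The remaining chemokine receptors on the array were mostly dim. Of 15 further receptors, 5 were tested (Ccr7, Cx3cr1, Cxcr5, Ccrl2 and Xcr1) and 5 were above background on 0 arrays. None had an adjusted p under 0.05, and at an unadjusted p under 0.05 there was 1 in each direction, beside 11.7% and 11.3% of all tested probes, a total of 2 that fell to 1 with slide as a term. The groups of 1 did not overlap upward and of 1 downward, beside 16.2% and 20.3%. Ccr7, the lymph node homing receptor of naive and central memory T cells, measured 5.26, 5.57 and 5.94 in cKO and 4.99, 4.83 and 4.50 in control cells. These did not overlap, unlike the tested receptor probes above, and gave a log2 fold change of 0.82 ± 0.21 (SE; limma, adjusted p = 0.139), with 0.61 within slide 1. Cx3cr1, the fractalkine receptor, did not overlap in the other direction, with −0.75 ± 0.18 (adjusted p = 0.122) and −0.93 within slide 1.

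The ligands of the 9 receptors were examined in the same cultures. Of 20 ligand genes, 10 were tested, 0 passed the adjusted test, and 2 (Ccl5 and Ccl25) were higher at an unadjusted p under 0.05, beside 11.7% of all tested probes. With slide as a term this count was 0. The groups did not overlap for 2 ligands upward and for 2, Ccl9 and Ccl17, downward, beside 16.2% and 20.3% of all tested probes. Ccl9 was well above background on 1 cKO and 3 control arrays, and Ccl17 on 1 and 2. Both thus passed the brightness filter mainly through the control arrays. Without cKO array 3 their log2 fold changes moved from −1.63 and −1.12 to −0.68 and −0.29. The median log2 fold change of the tested ligands was −0.24, with 4 positive and 6 negative values. Ccl5 measured 0.65, 1.20 and 1.22 in cKO and 0.46, 0.25 and −0.67 in control cells, without overlap. Its log2 fold change was 1.01 ± 0.33 (SE, limma adjusted p = 0.173), and 0.67 without control array 3. The other tested Ccl5 probe gave 1.08. Ccl20, the ligand of CCR6, measured 1.38, 0.88 and −0.08 in cKO and 1.06, 1.09 and 2.48 in control cells, with a log2 fold change of −0.82 ± 0.52 (SE; limma, adjusted p = 0.363) that moved to −0.34 without control array 3. Ccl1, the ligand of CCR8, measured 3.58, 3.72 and 1.92 in cKO and 4.61, 4.12 and 3.62 in control cells, with a log2 fold change of −1.04 ± 0.53 (adjusted p = 0.275) that moved to −0.47 without cKO array 3. Cxcl12 and Cxcl9 were above background on 0 arrays, and Cxcl16 was too dim to test. Ccl25, the ligand of CCR9, was higher by 0.34 ± 0.10 and did not overlap at its brighter probe (adjusted p = 0.156), whereas its other tested probe gave 0.13. With the probes of each gene averaged, the ligand count of 2 became 1.

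Genes that carry or end the receptor signal were nearly all measured, with 36 of 37 tested. None passed the adjusted test. At an unadjusted p under 0.05, 7 were higher and 3 lower in cKO cells, beside 11.7% and 11.3% of all tested probes. The groups did not overlap for 9 upward and 5 downward, beside 16.2% and 20.3%. The median log2 fold change was 0.08. Arrb1, which encodes β-arrestin 1, measured 3.81, 4.28 and 5.04 in cKO against 3.35, 3.36 and 2.59 in the controls, and its log2 fold change was 1.28 ± 0.37 (SE; limma, adjusted p = 0.152). Pik3cg, the catalytic subunit of phosphoinositide 3-kinase γ, was higher by 0.83 ± 0.22 (adjusted p = 0.143). Rgs1, a regulator that shortens G-protein signals, had a log2 fold change of −0.39 ± 0.12 (adjusted p = 0.161). Rgs14, of the same family, went the other way, with 0.26 ± 0.10 (limma, adjusted p = 0.208). With slide as a term, 0 of the 36 genes had an unadjusted p under 0.05.

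The receptor results were recomputed under 21 alternatives of processing, test and sample choice for the brightest probe of each gene. Not all of these could move the difference. It stayed as reported when only the test or the brightness filter changed and with the replicate block. The same held for averaging the probes of a gene with 1 tested probe. Slide as a term gave the value within slide 1. The difference kept its sign under all 21 for Ccr6 (0.69 to 1.48), Cxcr3 (0.13 to 0.60), Ccr8 (−0.41 to −0.14) and the brighter Cxcr4 probe (0.37 to 0.83). It changed sign under 6 of 21 for Cxcr6 and under 1 of 21 for the brighter Ccr4 probe. The adjusted p of Ccr6 ranged from 0.101, with limma's array weights, to 0.602, and under none of the alternatives that include a test did any receptor probe reach an adjusted p under 0.05.

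**Figure D4:**
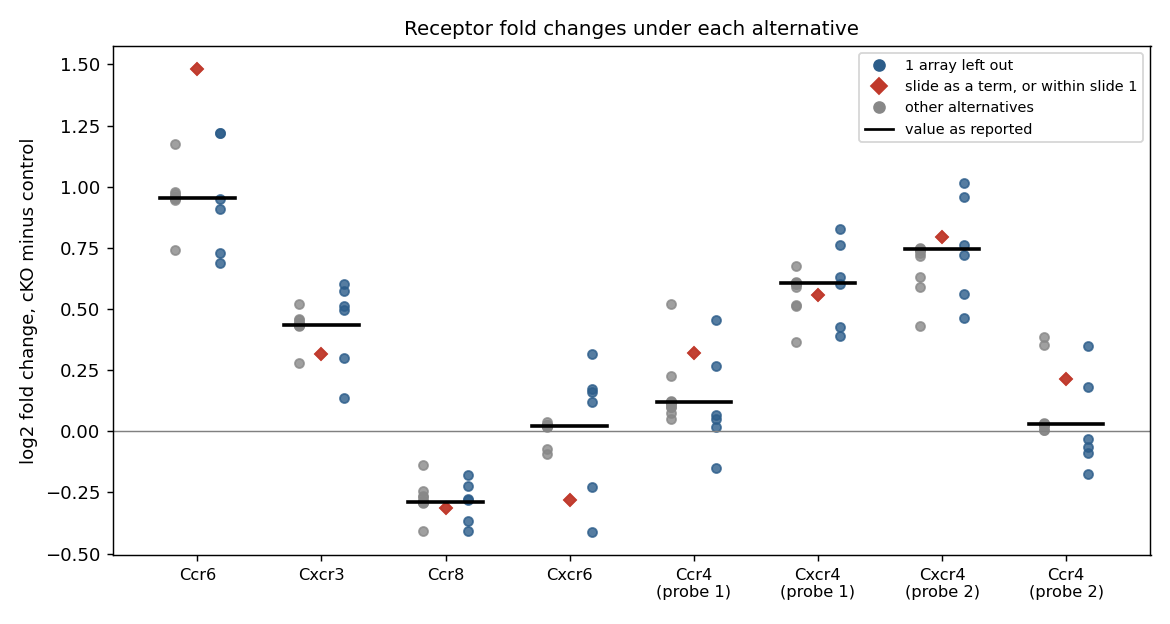
Log2 fold change of cKO over control cells (y axis) for each tested receptor probe as reported (black line), with 1 array left out (blue), with slide as a term or within slide 1 (red diamonds, equal to each other) and under the other alternatives (grey). The Ccr6 points lie between 0.69 and 1.48, whereas the points of Cxcr6, from −0.41 to 0.32, fall on both sides of 0.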

How the data were processed

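RNA of 3 cKO and 3 control iTreg cultures was hybridised by the authors to one-colour Cy3 Agilent whole mouse genome arrays. The deposited spot intensities are linear, were background-subtracted and detrended within each array by Agilent Feature Extraction per the file headers (10.7.3.1; 9.1 in the submitters' processing notes) and were not normalized between arrays. The deposited table of log2 values (column medians 6.15, normalization not given in the sources used here) served as an alternative. All 6 of its columns were matched to a sample.

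Control spots and outlier spots (123 to 140 per array) were left out, spots of a probe were averaged, and log2 signals were centred on each array's 75th percentile over probes. The 22281 probes marked well above background on 3 arrays or more were compared in R 4.3.3 with limma 3.58.1 (lmFit, eBayes) without covariates, with Benjamini-Hochberg adjustment over all of them and a threshold of 0.05. The study's methods name a 2-sided Student test, which was kept as an alternative. Tables and plots were made with Python 3.11.15, pandas 2.3.3, numpy 2.4.6 and matplotlib 3.10.9, and the fit was tested on simulated data. Gene symbols and positions (mm9) come from the array's annotation, and all 9 receptor symbols were found in the RefSeq gene table of GRCm38.p6, whose microRNA table gave the miR-31 sequences. The printed probe sequences are those of the deposited files.

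The 9 receptors and the gene lists were chosen with earlier results of these data known, so no test over a list was made. A gene of the list of other chemokine receptors is not reported here. Every receptor probe was named. Of the other lists, genes with an unadjusted p under 0.05 and groups that did not overlap could be named, as could cell type markers, and for Ccr6 the 3 genes most correlated with it. Ccl20, Ccl1, Ccl9 and Ccl17, the undetected ligands and the untested markers were named in addition, after their values were seen. The number of arrays limits the precision. The p-values set a difference against the spread between these cultures, which in the fit without covariates includes any difference between the slides.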

Additional observations from a re-analysis of the deposited data

How the results depend on the processing

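Under all alternatives, 0 receptor, ligand, signalling or other chemokine receptor probes passed the adjusted test in limma. The 29 calls over the whole array became 656 with array weights, 175 with probes above background on all arrays, 115 with normexp and quantile normalization, 98 with trend and robust fitting, 79 with the median as scaling point and 54 with the percentile taken over spots (chosen after seeing the data), but 0 without a filter on dim probes, with normexp and the 75th percentile, with slide as a term, with the methods' t-test or with the replicate block, and 0 to 1 with 1 array left out. Receptor probes at an unadjusted p under 0.05 numbered 1, but 3 with the median as scaling point, 2 without a filter, 0 with normexp and the 75th percentile, 0 with the methods' t-test and 0 to 3 with 1 array left out: 3 without cKO array 1, 2 without control array 2, and 0 without cKO array 3 or control array 1. The causes were not tested. Replicate numbers did not pair the arrays (correlations of deviations −0.14, 0.01 and −0.19), and the replicate block moved the 29 calls to 0 and no receptor call.

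Cxcr6 reversed to −0.071 with array weights, −0.095 with normexp and the 75th percentile and −0.28 with slide as a term and within slide 1, and ranged from −0.41 (without cKO array 3) to 0.32 with 1 array left out, where −0.23 came without control array 2. With 1 array left out, the brighter Ccr4 probe ranged from −0.15 (without cKO array 2) to 0.46, and the other from −0.17 to 0.35, with −0.091 and −0.17 without cKO arrays 1 and 2 and −0.064 and −0.034 without control arrays 1 and 2. Normexp with the 75th percentile moved the median log2 fold change of all tested probes from −0.04 to 0.10. With background close to the signals of Ccr1, Ccr2 and Ccr9, no difference could be measured for these.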
